A study of Mus musculus with 6 samples.

Results

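The 2 H3K4me3 peak lists of the study, 1 after water and 1 after crotonate, were compared peak by peak for width, summit position, joining, splitting and the genes beneath. The members were chosen by antibody label, which gave 2 of the 6 samples, with 13221 peaks after water and 16007 after crotonate. Both lists came from neural stem and progenitor cells (NSPCs) isolated from mouse forebrain at E13.5, expanded with epidermal and fibroblast growth factor and used at passage 2 or 3. The cells had been kept for 24 h either with water, the control, or with 10 mM crotonate, and carried no genetic change that the labels name. The assay was CUT&Tag: an antibody (here ab8580, against H3K4me3) tethers a transposase, which cuts and tags the DNA next to the mark. The labels give neither strain nor the number of embryos or cultures behind a library. Each treatment had 1 library, so the differences below were not checked against replicates and were given no p-values. Bounds beside a share come from the exact Clopper-Pearson method at 95% and hold counting error alone.

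H3K4me3 is trimethylation of lysine 4 of histone H3, written at promoters by the SET1 and MLL (KMT2) methyltransferase complexes and removed by KDM5 demethylases. SET1 complexes are brought to unmethylated CpG islands by the CXXC protein encoded by Cxxc1, so the mark sits mainly around the starts of genes with CpG-rich promoters, and it is read by factors of transcription initiation. Unusually broad H3K4me3 domains are known from genes that define the identity of a cell. Crotonate is a short-chain fatty acid salt from which cells make crotonyl-CoA, and histone lysines are crotonylated from this donor.

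The cell type label was checked against marker genes. Of 22 neural stem and progenitor genes, 22 had an H3K4me3 peak at or inside the gene in both lists, including Sox2, Nes, Vim and Hes1. At Pax6 and Msi1 the peak used lay inside the gene. Of 18 neuronal genes 10, and of 12 glial genes 6, also had a peak in both lists. The check therefore does not tell progenitors from neurons or glia. Of 10 microglia and blood genes none had a peak after water and 1 (Spi1, 550 bp) had one after crotonate. Of 10 vessel and fibroblast genes Kdr had a peak in both lists and Col1a1 after crotonate alone. None of 12 genes of unrelated lineages, such as Alb, Myod1 and Gata1, had a peak in either list. Total fragment numbers are not stated in the lists. All pileups, the authors' scaled fragment coverage at a summit, were whole multiples (within 0.00595) of 1 step per library, 0.260 after water and 0.402 after crotonate, and are given below in steps, which stand for fragments over the summit. The steps and the lowest local background gave an estimated H3K4me3 depth 1.16 times as high after crotonate, against a background 1.80 times as deep. Width and the number of peaks both depend on depth, and the part of depth in the differences below was not tested beyond the values given with them. In a bulk profile, a mark present in more cells and more of the mark in each cell cannot be told apart.

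The start sites below show what the mark was found on, from the RefSeq sequences of GRCm38.p6, the build of the peaks. Each is 300 bases long, runs from 250 bases before an annotated start to 50 after it, and has its CG dinucleotides in capitals. CG reads the same on both strands. At least 1 CG stood in 95.4% of the 21263 start sites of this reference, and 10 or more in 56.8%. Sox2, the transcription factor of neural progenitors, has 27 CG, and its start lay in a peak in both lists.
Sox2 start site, chr3:34649745-34650044, + strand: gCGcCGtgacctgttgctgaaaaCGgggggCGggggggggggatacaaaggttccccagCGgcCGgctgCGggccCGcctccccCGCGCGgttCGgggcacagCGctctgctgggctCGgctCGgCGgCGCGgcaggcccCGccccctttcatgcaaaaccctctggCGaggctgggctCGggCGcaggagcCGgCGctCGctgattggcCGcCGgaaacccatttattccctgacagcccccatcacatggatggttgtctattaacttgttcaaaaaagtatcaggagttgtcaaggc
Cdkn1a, which encodes the cell cycle inhibitor p21, has an annotated start upstream with 2 CG, covered after crotonate alone, and one inside the gene with 23, covered in both lists.
Cdkn1a upstream start site, chr17:29090729-29091028, + strand: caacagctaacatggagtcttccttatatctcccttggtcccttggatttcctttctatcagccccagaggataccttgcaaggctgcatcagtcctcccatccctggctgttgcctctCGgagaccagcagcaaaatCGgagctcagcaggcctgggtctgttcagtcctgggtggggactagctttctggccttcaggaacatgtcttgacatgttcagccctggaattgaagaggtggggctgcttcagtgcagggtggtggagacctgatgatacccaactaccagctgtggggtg
Cdkn1a internal start site, chr17:29093519-29093818, + strand: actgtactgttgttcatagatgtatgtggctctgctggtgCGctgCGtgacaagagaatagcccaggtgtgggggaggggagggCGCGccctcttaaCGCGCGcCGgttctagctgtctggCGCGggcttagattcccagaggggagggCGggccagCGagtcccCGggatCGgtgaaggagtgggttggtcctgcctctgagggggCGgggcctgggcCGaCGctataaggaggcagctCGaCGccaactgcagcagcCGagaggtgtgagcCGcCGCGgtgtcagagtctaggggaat
Nol7, a nucleolar protein gene with 26 CG, had a water peak that began 2 bp past its start and a crotonate peak that included it.
Nol7 start site, chr13:43398126-43398425, + strand: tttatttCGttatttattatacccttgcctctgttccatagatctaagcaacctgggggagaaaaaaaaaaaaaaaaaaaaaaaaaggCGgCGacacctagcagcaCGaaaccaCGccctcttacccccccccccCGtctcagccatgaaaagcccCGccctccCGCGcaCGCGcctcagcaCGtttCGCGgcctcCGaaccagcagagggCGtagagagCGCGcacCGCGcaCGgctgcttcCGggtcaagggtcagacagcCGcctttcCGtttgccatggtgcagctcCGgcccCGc
Plcg2, encoding a phospholipase C of immune cell signalling, has 21 CG and lay under a peak with no counterpart in water.
Plcg2 start site, chr8:117498025-117498324, + strand: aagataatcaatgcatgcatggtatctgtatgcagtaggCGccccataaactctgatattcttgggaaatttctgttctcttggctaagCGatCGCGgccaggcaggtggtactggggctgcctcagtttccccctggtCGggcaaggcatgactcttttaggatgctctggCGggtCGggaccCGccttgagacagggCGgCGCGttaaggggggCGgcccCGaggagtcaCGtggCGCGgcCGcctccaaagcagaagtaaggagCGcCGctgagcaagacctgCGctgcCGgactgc
Alb, the serum albumin gene of hepatocytes, has 3 CG and lay under no peak.
Alb start site, chr5:90460620-90460919, + strand: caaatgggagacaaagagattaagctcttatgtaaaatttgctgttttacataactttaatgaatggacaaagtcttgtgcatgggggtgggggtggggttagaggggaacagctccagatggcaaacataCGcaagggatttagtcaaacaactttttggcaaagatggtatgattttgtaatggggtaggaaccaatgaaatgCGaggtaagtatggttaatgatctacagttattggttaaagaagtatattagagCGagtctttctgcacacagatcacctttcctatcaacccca

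The peaks fell into groups by overlap of at least 1 bp. In 12093 groups a single water peak met a single crotonate peak, and these are called pairs. In 487 groups a crotonate peak joined 2 or more water peaks, 24 water peaks were split, and 4 groups held several peaks of both lists. A further 3371 peaks were in the crotonate list alone and 92 in the water list alone. The pairs held 91.5% of the water peaks and 75.5% of the crotonate peaks.

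Nearly all pairs were wider after crotonate, by an amount that did not grow in proportion to the peak. The median width was 1536 bp after water and 1968 bp after crotonate. The crotonate peak was wider in 94.5% of pairs (94.1 to 94.9, 11425 of 12093), narrower in 654 and equal in 14. The median gain was 374 bp, with a middle range from 182 bp at the lower quartile to 638 bp at the upper, and the median ratio of widths was 1.24. In 2839 pairs, or 23.5%, the crotonate peak was at least 1.5 times as wide, and in 20, or 0.165%, it was narrower by that factor. The gain was similar at narrow and wide peaks. With pairs put into 5 equal classes by water width, in the narrowest class (258 to 903 bp) it was 365 bp, a ratio of 1.62, and in the widest (2265 to 14466 bp) 407 bp, a ratio of 1.14. Pairs ordered by the height of the water peak showed the same evenness, from 372 bp in the lowest of 5 classes to 391 bp in the highest. By water width, the share at least 1.5 times as wide fell from 57.8% in the narrowest class to 4.18% in the widest.

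**Figure D1:**
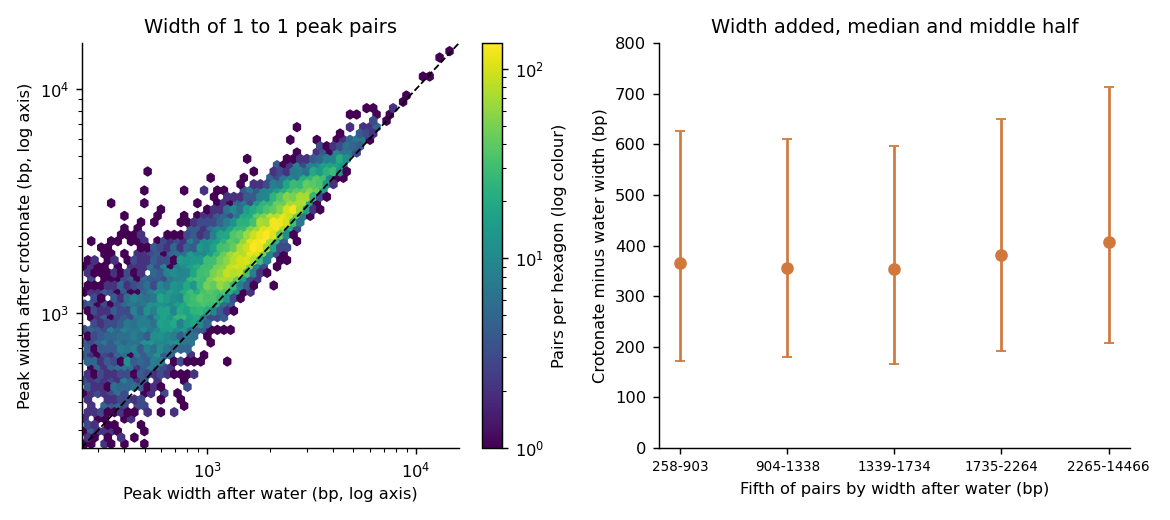
Left, width of 12093 peak pairs after water (horizontal) and after crotonate (vertical), in bp on log axes, with colour for the number of pairs; right, median width gain in bp for 5 classes of pairs by water width, with bars from the lower to the upper quartile. The cloud lies above the line of equal width, and the medians stay between 354 and 407 bp.

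Widening was also present where the summit was no higher in fragments. The median was 161 steps in both lists, and 5946 pairs (49.2%) had no more steps after crotonate than after water. Of those pairs 93.4% were still wider, with a median gain of 343 bp and a median ratio of 1.20. Among the other 6147 pairs 95.5% were wider, with 402 bp and 1.31. The split by steps does not hold the strength of the call equal. At the same median of 161 steps, all 12093 pairs scored a median −log10 q, against local background, of 39.0 in water. With crotonate their median score was 72.0. The crotonate list also reached lower, to 13 steps with a first percentile of 16, against 16 and 23 in water. Whether edges were called further out for this reason was not tested. Across the 20 chromosomes with enough pairs to compare, the median ratio ran from 1.21 to 1.29. The gain was smallest on chromosome X, at 292 bp, and largest on chromosome 8, at 423 bp.

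Peaks at start sites were wide before treatment and gained least in relative terms. The 8092 pairs over an annotated start site had a median width of 1667 bp in water and 2096 bp with crotonate, and 18.8% were at least 1.5 times as wide. Pairs at other gene ends (2663, within 2 kb of either end of a protein-coding gene) went from 1341 to 1833 bp, with 31.5% past that factor. Those inside genes (665) went from 848 to 1274 bp, with 37.3% past it. Pairs between genes (673) went from 731 to 1095 bp, with 34.8% past it. In bp the gains at these places were 380, 395, 315 and 260. Among pairs with a single start site, the gain was 279.5 bp at sites with 0 to 4 CG and 408 bp at those with 30 or more, while the median ratio was 1.25 and 1.21 and the share past the factor 25% and 16.4%.

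The widening was made at the edges and left most summits in place. In 81.1% of pairs the crotonate peak contained the whole water peak, and in 1.90% it lay inside it. Both edges had moved out by at least 100 bp in 41.2% of pairs and a single edge in 43.7%. The median summit shift was 41 bp. Summits lay within 200 bp of each other in 88.3% of pairs (87.7 to 88.9), at the identical base in 1797 pairs, and more than 1 kb apart in 127. The crotonate summit fell inside the water peak in 99.3% of pairs. The order of pairs by pileup was also kept, with a rank correlation of 0.962 over 12093 pairs that all share the same 2 libraries.

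Relative to the direction of transcription, the added length lay more often downstream. For 6486 pairs with a single start site the summit lay a median of 174 bp downstream of it after water and 170 bp after crotonate, which is the side of the first nucleosomes of the transcribed region. Summits within 300 bp downstream made up 60.4% and 59.3% of these. Those that moved by more than 200 bp went downstream in 349 pairs and upstream in 356, so no side prevailed. The edges did differ. The upstream edge lay 439 bp from the start site after water and 620 bp after crotonate, and the downstream edge 1088 and 1336 bp. Of 7333 pairs whose start sites all lay on a single strand, 59.1% (58.0 to 60.3) were extended further downstream and 40.7% further upstream. A downstream extension of at least 500 bp was found in 18.0% of them and an upstream one in 7.60%. Among pairs with no more steps after crotonate, 57.6% (56.0 to 59.2) were extended further downstream. The 759 pairs over start sites of both strands, as at divergent promoters, measured 2228 and 2682 bp.

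**Figure D2:**
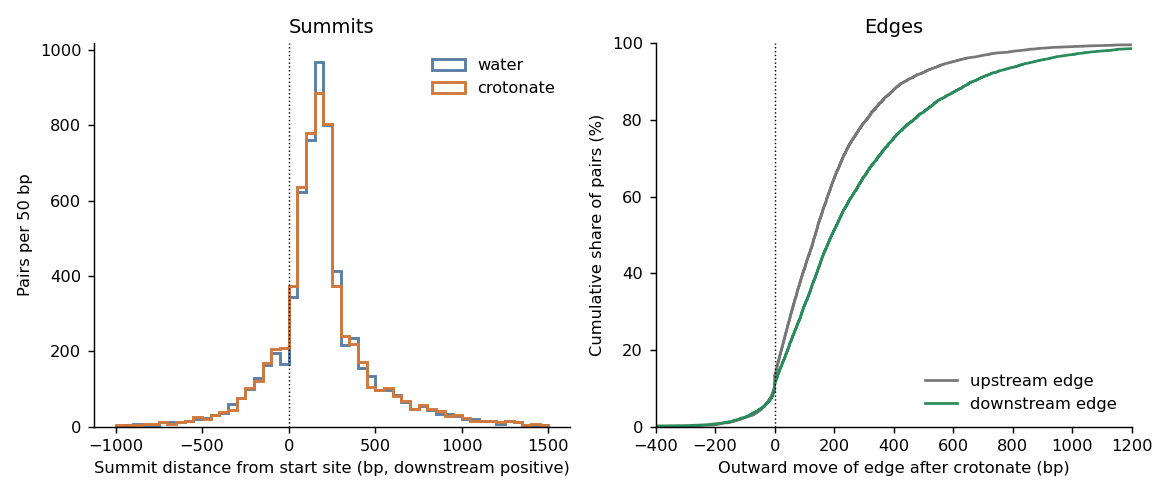
Left, number of pairs per 50 bp by the distance of the summit from the start site in bp, downstream positive, for 6486 pairs after water and after crotonate; right, cumulative share of 7333 pairs (%) by the outward move of the upstream and of the downstream edge in bp. The summit curves lie on each other with medians of 174 and 170 bp, and the downstream edge moved further, with a median of 192 bp against 137 bp upstream.

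The largest gains in bp at genes were seen at 10 peaks. At Pea15a, which encodes an astrocyte-enriched phosphoprotein that holds ERK in the cytoplasm, the peak measured 2683 bp after water and 6739 bp after crotonate, with 241 and 221 steps. Of the 4056 bp gained, 3733 bp lay downstream. At Cdkn1a the widths were 2407 and 5809 bp with 294 and 276 steps, and 2716 bp were added upstream, which brought the upstream start printed above into the peak. Both summits were thus no higher in fragments while the peak was more than 2 times as wide. At Lrrc24 the peak measured 1062 and 4022 bp with its summit at the same base, and after crotonate it reached into the neighbour Lrrc14. Zmiz1, a coactivator gene, had 5171 and 7951 bp, and Lrig1, whose product restrains the EGF receptor, 5774 and 8481 bp. Mtss2 and Vac14 shared a peak of 4857 and 7598 bp, and Traf7 and Rab26 one of 3330 and 5929 bp. The remaining 3 peaks were short and low in water and gained in height too. Jph3, a junctophilin gene of neurons, went from 511 to 3575 bp and from 37 to 100 steps. Pou4f2, a POU factor gene of retinal ganglion cells, went from 348 to 3199 bp and from 39 to 72 steps. Tgfb1, encoding the cytokine TGF-beta 1, had a peak of 783 and 3542 bp with 38 and 101 steps, which reached into the neighbour B9d2 after crotonate alone.

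**Figure D3:**
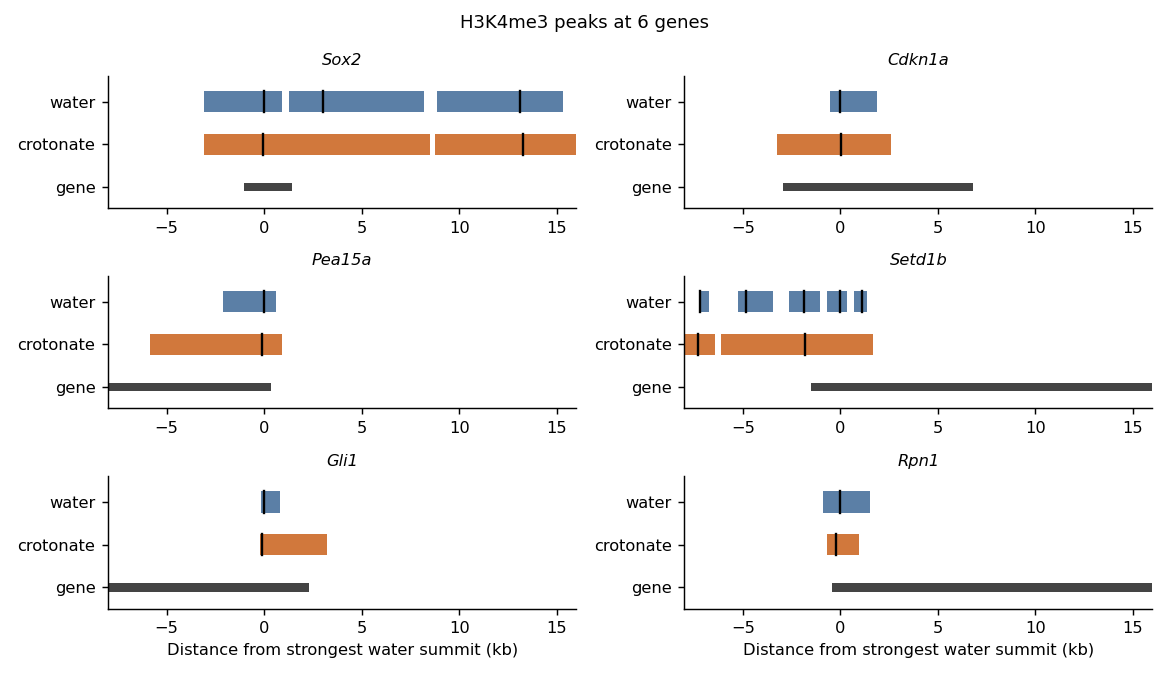
H3K4me3 peaks after water and after crotonate, and the annotated gene span, at 6 genes, in kb from the strongest water summit of each window, which is limited to 8 kb on the left and 16 kb on the right. Each bar is a peak drawn to scale with a tick at its summit; at Sox2 and Setd1b separate water bars stand over 1 crotonate bar, at Cdkn1a the crotonate bar reaches past the upstream end of the gene, and at Rpn1 it is the shorter bar.

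The narrowed peaks lost less, at most 719 bp. Rpn1, which encodes a subunit of the oligosaccharyltransferase, had a water peak of 2388 bp and a crotonate peak of 1669 bp, with 158 and 137 steps. Smc2, a condensin subunit gene, had 2304 and 1716 bp with an identical summit base and 242 and 261 steps, and lost 639 bp downstream. Tinf2, a shelterin subunit gene of telomere protection, had 2277 and 1785 bp. Snap29 with Pi4ka, Lrrtm2, Cacna1h, Ptrhd1 with Cenpo, Shb and Mars2 lost between 670 and 419 bp. At 3 of the 10 most narrowed peaks the summit stayed at the same base.

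The longest summit moves lay inside wide peaks, which a long move requires. Width ratios at the 10 peaks with the longest moves ran from 1.06 at Pou3f3 to 1.39 at Jak2. Only Jak2 lay above the median of all pairs, 1.24. At Pou3f3, a POU factor gene of forebrain progenitors, the peak measured 13012 bp after water and 13804 bp after crotonate while the summit moved by 11378 bp, from one end of the domain to the other. Tnrc18 (10790 and 11744 bp) moved by 6227 bp. Sp8, a forebrain patterning factor gene (3968 and 4499 bp), moved by 3183 bp in the other direction along the chromosome. At Nes, which encodes the progenitor filament nestin, the width was 4697 and 5004 bp and the height 283 and 284 steps. Its summit shifted by -2909 bp on the forward strand, from 87974068 to 87971159, nearer the start of the gene at 87971093. Others were Ap3m2, the protocadherin genes Pcdh11x and Pcdh17, LOC102634078 and Jak2, with moves of 2799 to 2475 bp.

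Joining brought neighbouring peaks into a single call across short gaps. The 487 joined groups took in 1003 water peaks, with 459 groups of 2, 27 of 3 and 1 of 4. The gap bridged had a median of 390 bp, with 90% up to 848 bp, and exceeded 1 kb in 32 groups. In water the weaker member was typically a short flank, with a median of 567 bp and 46 steps, beside a stronger one of 1784 bp and 171 steps. The crotonate summit lay within 200 bp of the stronger member's in 369 groups (75.8%). A start site lay in 341 of the groups, and in 47 of them one lay in the gap itself. Of the narrowest of 5 width classes of water peaks 15.9% were joined, of the middle class 4.50% and of the widest 6.88%, and of the 883 peaks of at least 3 kb 10.5%.

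The 3 widest H3K4me3 domains after crotonate covered the 3 genes of the microRNA miR-9, a regulator of the switch from progenitor to neuron. Each joined 2 or 3 water peaks. The largest water piece already ranked 1 by width at Mir9-2, 2 at Mir9-1 and 6 at Mir9-3. These genes were looked up after the widths had been seen. All 3 hairpins give the same mature strand, shown 5′ to 3′ from RefSeq with its seed, bases 2 to 8, in capitals.
miR-9-5p: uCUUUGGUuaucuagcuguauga
At Mir9-2, on chromosome 13 with its hairpin at 83738814 to 83738885, water had 3 peaks of 23757, 3953 and 426 bp. The gaps between them measured 377 and 548 bp. After crotonate a single peak ran from 83712772 to 83742037, or 29266 bp, the widest of the list, as the first of the 3 had been in water. At Mir9-1, on chromosome 3, peaks of 4873 and 16958 bp became one of 23791 bp, from 88199490 to 88223280. At Mir9-3, on chromosome 7, peaks of 583 and 11393 bp became one of 16073 bp, from 79496093 to 79512165. The water pieces there spanned 79497792 to 79510360, so both outer edges had also moved out. None of these domains was higher in fragments after crotonate, with 296 and 280 steps at Mir9-2, 292 and 250 at Mir9-1, and 264 and 229 at Mir9-3. Over all 1005 microRNA hairpins of the reference, 97 lay under a peak in both lists, 24 after crotonate alone and 1 after water alone. Mir21a, Mir191, Mir210 and Mir148a were among the 24. The count is of hairpins, and the peak over one of the 24 can be new or overlap a water peak beside the hairpin.

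Of the joined protein-coding loci, Setd1b took in the most pieces. It encodes the catalytic subunit of a SET1 complex, one of the enzymes that write H3K4me3, and shares the domain with its neighbour Rhof. Water had 4 peaks there, of 1775, 1601, 1032 and 625 bp, and crotonate one of 7798 bp at chromosome 5, 123137430 to 123145227. Micos13, Rpl36 and Lonp1, with the end of Safb nearby but outside it, had a crotonate peak of 9290 bp that bridged gaps of 2429 and 1370 bp between 3 water peaks. Otx1, a forebrain homeobox gene, had 3 peaks in water and one of 9238 bp after crotonate. Gas1, a membrane protein gene of hedgehog signalling, had 3 and then one of 6570 bp. Pcgf2, a Polycomb subunit gene, with Psmb3 had 3 and then one of 6978 bp. Sall3, Zfp521, Zcchc14 and the neighbours Fbxl15, Psd and Cuedc2 were also among the 10 groups named. Since 27 groups had 3 pieces, those with the highest −log10 q were taken.

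Splitting was rare and mostly cut a low flank off a strong peak. The 24 split water peaks had a median span of 2676 bp, and the gap opened after crotonate had a median of 316.5 bp. The smaller piece had a median of 465 bp and 31.5 steps. At Cct3, a chaperonin subunit gene that shares its promoter region with Tsacc, a water peak of 3093 bp became pieces of 330 and 2660 bp with 30 and 334 steps. Sin3a, a corepressor gene, was an exception to this shape, with 6376 bp in water and pieces of 2816 and 3487 bp of nearly equal height, 219 and 228 steps. At Wsb2 the pieces measured 1576 and 1696 bp, and its start site lay in the gap. Zfp367, Klhdc10, Ankib1 with Krit1, Cebpd with Spidr, Sgk1, Stard4 and Ppp4r1 were the other 7 named, by −log10 q, since all 24 had 2 pieces.

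The 3371 peaks found after crotonate alone were short, low and placed differently from the shared peaks. Their median was 469 bp and 25 steps. Of them 1480 (43.9%) had no more than 23 steps, the first percentile of the water list, and 125 were below the lowest water peak. A start site lay in 22.8% (21.4 to 24.3) of them and in 70.9% (70.1 to 71.7) of the shared peaks of the crotonate list. Gene bodies held 30.6% and 4.61%, and the space between genes 15.0% and 4.10%. Of the new peaks 1684 (50.0%, 48.3 to 51.7) lay within 5 kb of a water peak and 809 within 1 kb. The first share was 26.2% with lists of equal length, 26.7% after peaks within 1 kb of each other were joined and 31.5% with a fold enrichment of at least 5 in both lists. Where that neighbour covered start sites of a single strand, 651 of 968 (67.3%, 64.2 to 70.2) lay on its downstream side. New peaks further than 5 kb from a water peak were larger, with medians of 521 bp and 29 steps against 430.5 bp and 22 steps.

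**Figure D4:**
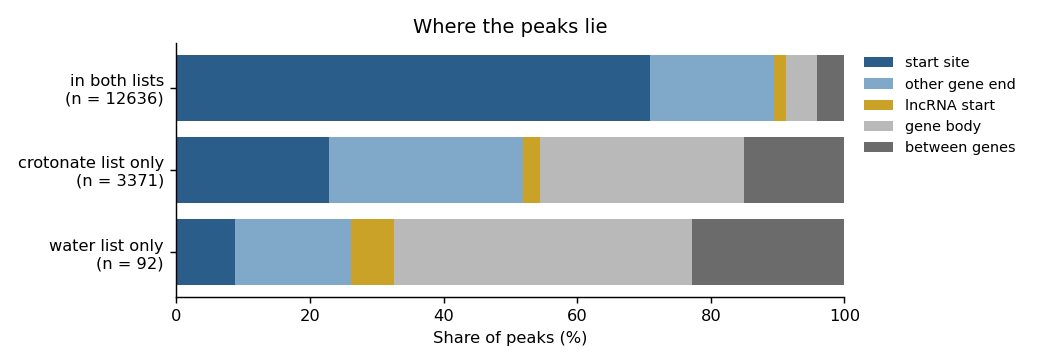
Share of peaks (%) over a start site, at another gene end, at the start of a long non-coding RNA, inside a gene and between genes, for peaks in both lists, in the crotonate list alone and in the water list alone. Start sites make up 70.9%, 22.8% and 8.70% of the 3 bars.

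By the authors' −log10 q, the strongest of the new peaks lay mostly on start sites, 7 of the first 10. The first was a start annotated inside Egf, the epidermal growth factor gene, with a peak of 528 bp and 142 steps. E130311K13Rik (489 bp, 91 steps), Plcg2 (996 bp, 81 steps) and Radil (778 bp, 85 steps) followed. Lhx4, a LIM homeobox gene, had the longest of these 10 new peaks, 2395 bp with 75 steps, at a start inside the gene. Cfap20, Dera, Lcp1 with Lrrc63, Emc9 and the developmental factor gene Tfap2a completed the 10, with 69 to 85 steps. The 92 peaks found in water alone had a median of 336.5 bp and 27 steps, and 41 of them lay within genes. The strongest at genes were at Akap6 (362 bp, 43 steps) and Tef, a circadian bZIP factor gene (802 bp, 76 steps). Peaks of 265 to 549 bp in water alone lay at Ankrd17, 1700001O22Rik, the Pcdha cluster, Pdpk1 and Limk2. The first 2 of the 10 by −log10 q lay at no protein-coding gene.

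Start sites came under the mark by 2 routes. Of 17492 protein-coding genes with an annotated start in the reference, 9076 (51.9%) had a covered start after water and 9799 (56.0%) after crotonate. Among the 8416 genes without one in water, 743 had one after crotonate, which is 8.83%, and 20 genes went the other way. New peaks accounted for 416 of the 743. In the other 327 (44.0%) a peak that was already there in water had grown over the start, from a median distance of 53 bp and at most 1115 bp. Nol7 was one of these, at 2 bp. Others, chosen after their values were seen, were Tlk2, a kinase gene of chromatin assembly (66 bp), Nsf, a gene of vesicle fusion (25 bp), Larp1, a regulator of translation (136 bp), and Phf2, a histone demethylase gene (103 bp). CG content was taken per start site, not per gene. Further starts of genes already covered in water, such as the upstream one of Cdkn1a, are therefore included. The 10578 start sites covered in both lists had a median of 23 CG. The 489 under a new peak had 17, the 493 reached by extension 14 and the 9676 under no peak 3. At least 10 CG stood in 93.0%, 81.6%, 66.1% and 15.4% of these sites. Counting any peak within 2 kb of either gene end, 915 of 10056 genes without a peak in water had one after crotonate, or 9.1%, and 11 genes had one after water alone. With lists of equal length these counts were 503 and 85.

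Progenitor genes had wide peaks in both lists, and several of these were joined to a neighbour after crotonate. Of 15 members of the neural stem and progenitor list that formed pairs, 15 were wider, against 94.5% of all pairs. Of the 15, 1 (Lhx2, 1396 to 2484 bp at its gene end) reached the factor of 1.5, or 6.67% against the 23.5% of all pairs. The median ratio was 1.16 against 1.24, and the median widths were 3682 and 4555 bp. Among all pairs in the widest of the 5 classes by water width, 4.18% passed the factor and the median ratio was 1.14. Pax6, a factor of cortical progenitors, had its widest peak inside the gene, 3243 bp after water and 4480 bp after crotonate, with the same summit base. Sox3 had 4890 and 6073 bp and Prom1, encoding the surface marker CD133, 1660 and 2082 bp. The widest peak at a gene end was joined to another at 7 of 20 members, against 4.1% of all 11831 genes with such a peak in water. Among all 883 water peaks of at least 3 kb, at genes or not, 10.5% were joined. The same count was 2 of 15 in the housekeeping list, 2 of 20 in the signalling list and 0 of 22 in the crotonylation list. Sox2 had 2 water peaks of 3984 and 6894 bp, 377 bp apart, with 221 and 143 steps. After crotonate it had 1 peak of 11566 bp and 214 steps at chromosome 3, 34647955 to 34659520. Vim, the vimentin gene, had pieces of 934 and 3370 bp and then 5579 bp. Hes1, the Notch target gene, had pieces of 612, 343 and 2910 bp and then 4625 bp. Fabp7, Emx2, Id3 and Otx1 were the other 4.

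Neuronal genes ranged from nearly equal widths to the largest ratio of any list member, that of Tubb3. Of 10 pairs in the list of neurogenesis and neurons 10 were wider, against 94.5% of all pairs, and 3 passed the factor of 1.5, against 23.5%, with a median ratio of 1.16. Tubb3, the neuronal beta-tubulin gene, had 545 bp after water and 2002 bp after crotonate with 43 and 48 steps. The Tubb3 peak was weak against its background in water, with a −log10 q of 2.00, and had 16.2 after crotonate. Elavl3, an RNA-binding protein gene of neurons, had 1425 and 2542 bp, and Neurog2, the proneural factor gene, 1288 and 2157 bp with 51 and 58 steps. Elavl4, of the same family as Elavl3, stood at 1695 and 1748 bp, a ratio of 1.03. Of the 8 members without a water peak 4 had one after crotonate, against 9.1% of all genes without one in water. In the list of ventral forebrain and interneurons 7 of 10 such members had one, against the same 9.1%. The widest such peak per gene was low, with 23 to 51 steps in the neuronal list and 15 to 48 in the ventral one. The first percentile of the water list was 23 steps. With lists of equal length the genes gained fell from 915 to 503 over all genes, and the counts of these 2 lists were not redone. Dlx1 went from 735 to 2090 bp, while Dlx2, its neighbour in the same cluster, stood at 1448 and 1691 bp. Olig2 was the 1 glial gene joined, from peaks of 2201 and 6239 bp to 9860 bp. Among 5 glial pairs 2 passed the factor, against 23.5% of all pairs: Aldh1l1 of astrocytes (1065 and 2239 bp) and Pdgfra of oligodendrocyte precursors (1569 and 2367 bp). The Aldh1l1 peak had a −log10 q of 3.66 in water and 11.4 after crotonate. The Pdgfra peak was low, with 20 and 27 steps, and the higher peak beside it, with 143 and 180 steps, measured 1555 and 1563 bp. Olig1 fell just short of the factor at 3340 and 4983 bp. Gfap, the astrocyte filament gene, had no peak in either list.

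Proliferation genes had a median ratio close to that of all pairs, with 2 members narrower. Cdkn1a lay outside these pairs, since its water peak lay more than 2 kb from both annotated ends. In the cell cycle list 17 of 19 pairs were wider, against 94.5% of all pairs, and 1 passed the factor, against 23.5%, with a median ratio of 1.19. That 1 pair, of 2214 and 3492 bp, lay past the end of Cdk4, the kinase gene of G1 progression, and the peak on the gene measured 1967 and 2877 bp. At the proliferation marker gene Mki67, pieces of 457 and 2818 bp were joined to 3481 bp. Ccnb1, the mitotic cyclin B1 gene, measured 2233 and 2224 bp, and Mcm5, of the replicative helicase, 2485 and 2373 bp. Ccnd1, the cyclin D1 gene, had 2 water peaks of 1598 and 5472 bp and 1 crotonate peak of 10132 bp. In the signalling list 18 of 18 pairs were wider, against 94.5% of all pairs. There 2 were past the factor, or 11.1% against 23.5%, with a median ratio of 1.27. The median water width was 2274 bp in the cell cycle list and 2460.5 bp in the signalling list. Among all pairs in the widest of the 5 classes by water width, 4.18% passed the factor and the median ratio was 1.14. Gli1, effector and target of hedgehog signalling, had 991 and 3459 bp with 45 and 71 steps, and Etv5, a target of FGF signalling, 2223 and 3404 bp. The Gli1 peak had a −log10 q of 3.66 in water and 16.1 after crotonate. Jag1, a Notch ligand gene, stood at 4229 and 4288 bp. Spry2 and Spry4, FGF-induced inhibitors of receptor signalling, were joined to 7163 and 9994 bp.

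Among genes of H3K4 methylation and of crotonyl metabolism most pairs were wider, and few passed the factor, as among all pairs of like width. Of 15 pairs among writers, their partners and erasers, 15 were wider, against 94.5% of all pairs. Of the 15, 0 passed the factor, against 23.5% of all pairs, and the median ratio was 1.16 against 1.24. The median water width of the 15 was 2395 bp. In the widest class of all pairs by water width, 4.18% passed the factor and the median ratio was 1.14. Kmt2b had the largest ratio, 1.33 (2537 and 3378 bp), and Kmt2a, with 4407 and 4553 bp, was among the smallest. Of 23 pairs in the crotonylation list 22 were wider, against 94.5% of all pairs. In that list 3 passed the factor, or 13.0% against 23.5%, with a median ratio of 1.22. The median water width of the 23 was 1784 bp. Among all pairs of 1735 to 2264 bp in water 9.77% passed the factor, with a median ratio of 1.19. Kat6a, an acetyltransferase gene of the MYST family, had 2803 and 4954 bp, Sirt3, the mitochondrial deacylase gene, 1756 and 2802 bp, and Gcdh, whose enzyme produces crotonyl-CoA from glutaryl-CoA, 1323 and 2090 bp. Ep300, which encodes the acetyltransferase p300, known to transfer crotonyl groups as well, was narrower, at 3733 and 3618 bp. Of the housekeeping genes 14 of 14 pairs were wider, against 94.5% of all pairs. Of the 14, 1 (B2m, 1386 and 2550 bp) passed the factor, or 7.14% against 23.5%, with a median ratio of 1.25. The median water width of the 14 was 2641.5 bp, which falls in the widest class. In that class of all pairs 4.18% passed the factor and the median ratio was 1.14. Actb measured 3364 and 4421 bp, Gapdh 3663 and 4158 bp, and Hprt 1613 and 1675 bp.

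**Figure D5:**
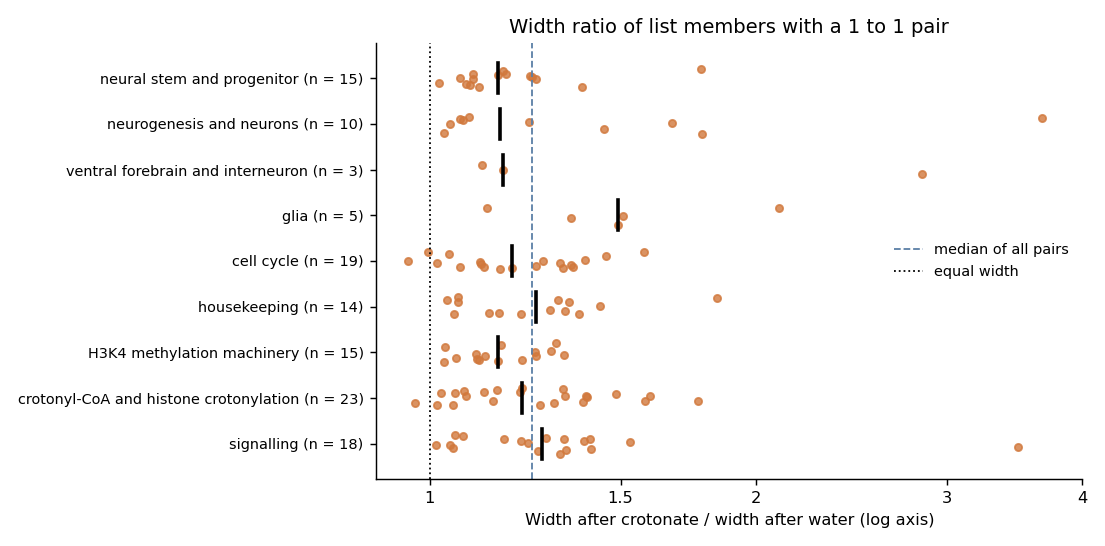
Width after crotonate divided by width after water, on a log axis, for each list member with a 1 to 1 pair (points, spread vertically for sight); black bars are list medians, the dashed line marks the median of all pairs, 1.24, and the dotted line equal width. Most points lie between the lines or just past the dashed one, with Tubb3, Gli1 and Dlx1 furthest to the right.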

How the data were processed

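H3K4me3 CUT&Tag peak lists of 2 libraries were used, 1 per treatment. Per the submitters' processing notes, the build was GRCm38 and the tools were MACS2 2.2.7.1, Bowtie2 2.4.1, Picard 2.22.0 and SAMtools 1.10. Settings, duplicate handling and background library: not given in the sources used here. Per the file headers, each deposited line holds 1-based start, end, length in bp and summit. The deposited pileup is a summit signal that was scaled by 1 factor in each library. Per the file headers, −log10 of the p-value and of the q-value was given against a local background. The deposited fold enrichment is a ratio of summit signal to that background. These values are the authors' own and served for description, ranking and filters inside a list. Pileup was divided by its step to compare fragments over summits. Behind the depth estimate stand assumptions that were not tested: a shortest peak of fragment length, and scaling of both libraries to their backgrounds.

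Peaks were grouped by overlap of at least 1 bp with pandas 2.3.3, numpy 2.4.6 and scipy 1.17.1 under Python 3.11.15 and drawn with matplotlib 3.10.9. The overlaps were checked with bedtools 2.31.1 (13129 water peaks found again) and tested on simulated data. Genes came from RefSeq for GRCm38.p6, with 21887 protein-coding genes. Start sites and strand came from promoter sequences, which cover 17492 of them and have no entry on chromosome 18, so peaks there were never counted as start sites. A gene had a peak where one reached within 2 kb of either annotated end. For list genes without such a peak, the widest peak inside the gene was used where both lists had one. With no replicates no test was made.

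Named genes were the 10 pairs at gene ends with the largest gain, loss and summit distance, the 10 groups with the most pieces joined and split (ties by −log10 q, which chose among groups of 3 joined and all the split peaks), the 10 peaks of each single list with the highest −log10 q, up to 4 members per list with the largest and 2 with the smallest ratio, and 10 genes always. Not all of them are reported. Others, among them the microRNA genes, the start sites reached by extension, and the joined or new peaks of list genes, were named after their values were seen. The members, the 12 gene lists (199 genes) and the questions were chosen with earlier results of these data known.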

Additional observations from a re-analysis of the deposited data

How the results depend on the processing

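Over 8 alternatives and 12 results, 59 values were computed. Of these 25 stayed within the counting interval (or, for counts, within 1.5 times) and 34 moved. A reversal of direction was defined only for the share wider, the median ratio, the median gain and the share extended further downstream. There 0 values reversed, and for the other results a reversal could not be recorded. The cause of a move was not tested except where given. The share of water peaks found after crotonate, 99.3%, was 86.4% with a reciprocal overlap of at least 50%, 97.0% with lists of equal length and 98.7% with a fold enrichment of at least 5 in both lists. The share of pairs wider after crotonate, 94.5%, was 94.0% with reciprocal overlap, 92.9% over pairs with no higher pileup rank after crotonate and 93.4% over pairs with no more pileup steps, an alternative chosen after seeing the data. The median width ratio, 1.24, was 1.23 with reciprocal overlap, 1.24 with the fold threshold, 1.26 after peaks within 1 kb were joined, 1.21 by rank and 1.20 by steps. Summits within 200 bp, 88.3%, came to 89.0% by steps. Joined groups numbered 487, and 310 with the fold threshold and 154 after joining within 1 kb, which removes the short gaps by construction. Split peaks numbered 24, and 11 with equal lists, 15 with the fold threshold and 2 after joining within 1 kb. With reciprocal overlap both counts were 0, since a piece under 50% of the whole no longer counts. Genes with a peak after crotonate alone numbered 915, and 503 with equal lists. Genes with a peak after water alone numbered 11, and 85 with equal lists, 34 with the fold threshold and 3 with a window around the start site only.

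The 4 results added after seeing the data gave a median gain of 334 to 407.5 bp, a share extended further downstream of 57.6% to 60.7%, 564 to 835 genes with newly covered start sites, and 26.2% to 63.2% of new peaks within 5 kb of a water peak. No paired analysis was possible because each treatment had 1 library. No alternative matched the fragments along the whole peak, so the share of the added width that depth accounts for was not tested. New peaks with 13 to 23 steps lie near the limit of what the water list could hold.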

Other observations

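MicroRNA hairpins outside the miR-9 family also lay under peaks, some of nearly equal width in both lists, while some were covered after crotonate alone. A hairpin covered after crotonate alone need not lie under a new peak. Mir6418 lay under one of 4630 bp, while the longest crotonate peak with no water counterpart measured 4088 bp. Mir125b-1, a gene of the neural microRNA miR-125b, lay under a water peak of 4955 bp and a crotonate peak of 5078 bp. For Mir345 the widths were 5026 and 5191 bp. Mir21a had its hairpin under a crotonate peak of 3681 bp and 120 steps, and under no water peak. The hairpins of Mir93 and Mir106b, of the proliferation-linked miR-17 family, lay under a crotonate peak of 332 bp and 16 steps, among the lowest of that list. Hairpins are short, and a peak over one need not mark its promoter.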
